A study of Homo sapiens with 12 samples.

Results

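Total RNA of the immortalised human bronchial epithelial line 16HBE was compared between cells exposed to the MEK inhibitor GSK1120212 (trametinib) and cells given its solvent DMSO. The members were chosen by the labels: the 3 arrays of cells given 500 nM GSK1120212 and the 3 arrays of cells given DMSO, which make 6 of the 12 arrays in the series. Both groups carried the empty retroviral vector pQCXIP as a stable infection, and both were treated for 4 days before RNA was extracted. The other arrays were 3 of the same vector cells given the ERK inhibitor SCH772984 at 1 µM for 4 days, and 3 of cells infected with a vector for dominant-negative Ras (DN Ras N17), whose labels give neither a solvent nor a time. All arrays came from a single cell line, and the design text states that each of 3 independent experiments gave 1 sample of every group. The p-values therefore measure the spread between experiments on that line, at a single dose and a single time.

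MEK is the kinase that activates ERK by phosphorylation, and it stands below Ras and Raf in the cascade through which growth factor receptors act on transcription. Active ERK raises the early-response factors of the EGR and FOS families and the feedback inhibitors of the DUSP, SPRY and SPRED families. In airway epithelium the cascade takes part in repair, inflammation and squamous change. GSK1120212 binds MEK beside its ATP pocket. SCH772984 acts on ERK, the next kinase down.

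Each array carried 47322 probes, of which 16825 to 18295 were detected at a detection p-value under 0.01, with a median of 21 or 22 beads behind a value. Array values are normalized log2 intensities of 1 probe per gene, so levels of different genes are not compared. Across genes, which are not independent replicates, arrays correlated at r = 0.9897 to 0.9935 within the control group and at 0.989 to 0.9927 within the MEK inhibitor group. Replicate 3 of dominant-negative Ras was the most divergent array of the series: 84 genes differed there by 2-fold or more from each of its group mates, and no other array had over 21 such genes. It entered the tests through the spread that all 12 arrays shared. Quantile normalization and the choice of each gene's brightest probe also used all 12 arrays. Fits that left an array out kept these normalized values. All 12 epithelial markers looked for, among them EPCAM, KRT18 and CDH1, were detected in both groups, with a summed linear level of 16989 to 19339 in control cells and 13075 to 14335 with the inhibitor. The airway basal markers were detected in 6 of 9 cases in control cells and 4 of 9 with the inhibitor, with a summed level of 1457 to 1492 and 1109 to 1212, while all 9 club and goblet cell markers, SCGB1A1 among them, and 8 of 10 ciliated cell markers, FOXJ1 among them, were detected on none of the 6 arrays.

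With MEK inhibited, 1702 of 10208 measured genes (16.7%) passed limma's test at an adjusted p under 0.05, 760 of them higher (7.45%) and 942 lower (9.23%). By at least 2-fold 216 genes fell and 113 rose, and by at least 4-fold 49 fell and 17 rose. The 2-fold counts were 113 and 63 with an offset of 50 in place of 16 added to the intensities before the logarithm. Of the 1702 genes, 876 kept their call when any single one of the 12 arrays was left out, and so did 314 of the 329 genes past 2-fold. The median change of all genes was 0.0066 on the log2 scale, and the smallest change called was 0.325. The count was 1066 without control replicate 1, 1081 without MEK inhibitor replicate 2 and 2072 without dominant-negative Ras replicate 3. Of the genes called lower, 91 were detected on no array with the inhibitor, and of those called higher, 33 were detected on no control array. Such a gene has only a bound, given below as "at least" so many fold. The bound sets the brighter group's mean against a floor for the dimmer group, which on each array is the lowest detected value, or the gene's value where that was higher. Other changes below are log2 differences, MEK inhibitor minus control, ± SE (n = 3 arrays per group), and p-values are limma's, adjusted by Benjamini-Hochberg over the 10208 genes. Among the genes given a log2 difference, VEGFC and KLK8 were detected on 1 of 3 inhibitor arrays and GDF15, LIF, HES1 and B3GNT3 on 2 of 3. ARRDC4 and LUM were detected on 1 of 3 control arrays and TWIST1 and IGF1R on 2 of 3.

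**Figure D1:**
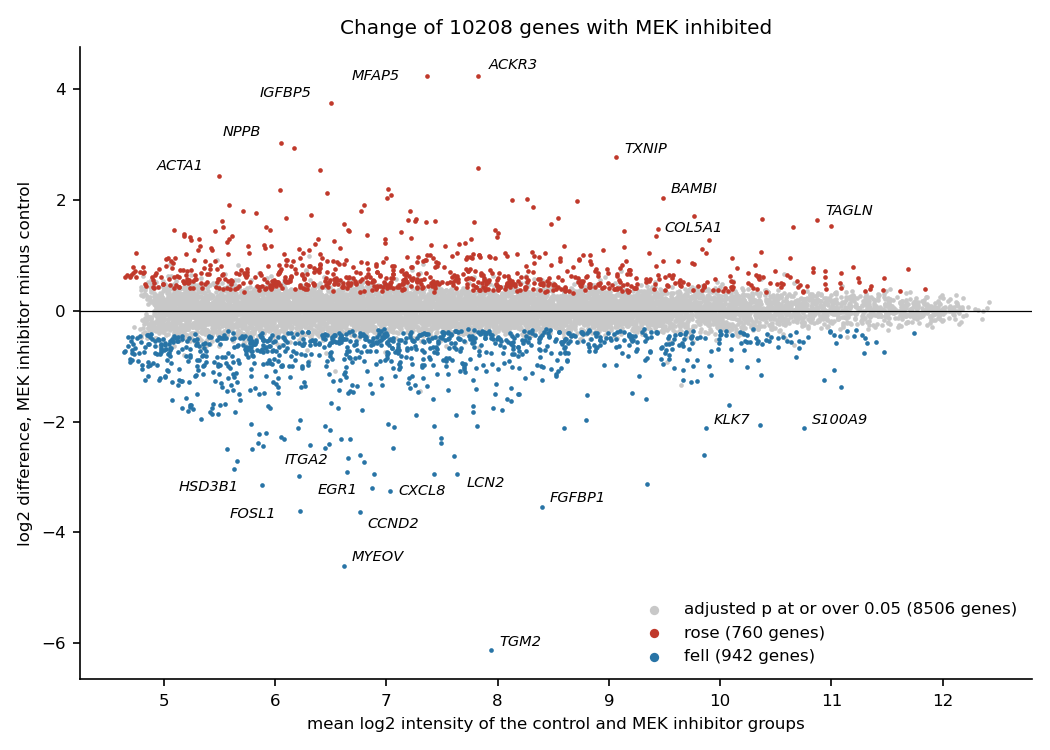
Log2 difference between the MEK inhibitor and control groups (vertical axis) against the mean log2 intensity of both groups (horizontal axis) for 10208 genes, 1 point per gene, with 760 that rose in red and 942 that fell in blue. The falls reach −6.13 in TGM2 and the rises 4.25 in ACKR3, and changed genes lie at every level of intensity except the highest.

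TGM2, which encodes the cross-linking enzyme tissue transglutaminase, had the largest fall of any gene. Its values were 11.18, 10.92 and 10.93 on the control arrays and 5.30, 4.59 and 4.73 with the inhibitor, where it was detected on 1 of 3 arrays, a change of −6.13 ± 0.20 (limma adjusted p = 2.72e-11). MYEOV, a gene named for its overexpression in myeloma, read 9.16, 8.54 and 9.05 in control cells and 4.17, 4.48 and 4.29 with the inhibitor, where it was undetected, at least 16.7-fold lower (limma adjusted p = 5.34e-09). In TGM2 the arrays of the groups lay more than 5 log2 units apart. The rises were led by ACKR3, a scavenging chemokine receptor, with 5.44, 5.88 and 5.79 in control cells and 9.56, 9.95 and 10.34 with the inhibitor (limma adjusted p = 3.09e-05). MFAP5, a protein of extracellular microfibrils, went from 5.24, 5.10 and 5.38 to 9.39, 9.41 and 9.66 (limma adjusted p = 8.33e-08), and no array of one group came near the other. IGFBP5, which binds and holds insulin-like growth factors, was undetected in control cells and read 7.46, 8.71 and 8.94 with the inhibitor, at least 11.5-fold higher (limma adjusted p = 0.00397). Replicate 1 was the lowest of its 3 arrays, and it was also the highest of the inhibitor arrays for NPPB.

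The other genes among the 15 largest falls were the cell cycle regulator CCND2, the AP-1 subunit FOSL1, FGFBP1, which releases fibroblast growth factors from the matrix, the chemokine CXCL8, the early-response factor EGR1, the steroid dehydrogenase HSD3B1, C6orf15, the calcium-binding CALB2, the iron-scavenging LCN2, the lysosomal fucosidase FUCA1, and PHLDA1, SPRED1 and ETV5. C6orf15 went from 11.16, 10.79 and 10.78 to 8.27, 7.58 and 7.50 and FUCA1 fell by −2.95 ± 0.13 (limma adjusted p = 9.3e-10). Among the 15 largest rises were also C5orf46, GASK1B, the copper pump ATP7B (2.12 ± 0.33), DIO2, which activates thyroid hormone (2.17 ± 0.32, detected on 1 of 3 control arrays), the intermediate filament protein SYNC (2.08 ± 0.21) and the surface proteoglycan CSPG4 (2.03 ± 0.24). In each of the 30 genes the 3 control arrays and the 3 inhibitor arrays did not overlap, and each kept its call without any one array. Of all genes measured, 38.5% had groups that did not overlap. Among the 1702 called genes the count was 1691. The 30 were picked as the largest called changes, so their lack of overlap adds no support.

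**Figure D2:**
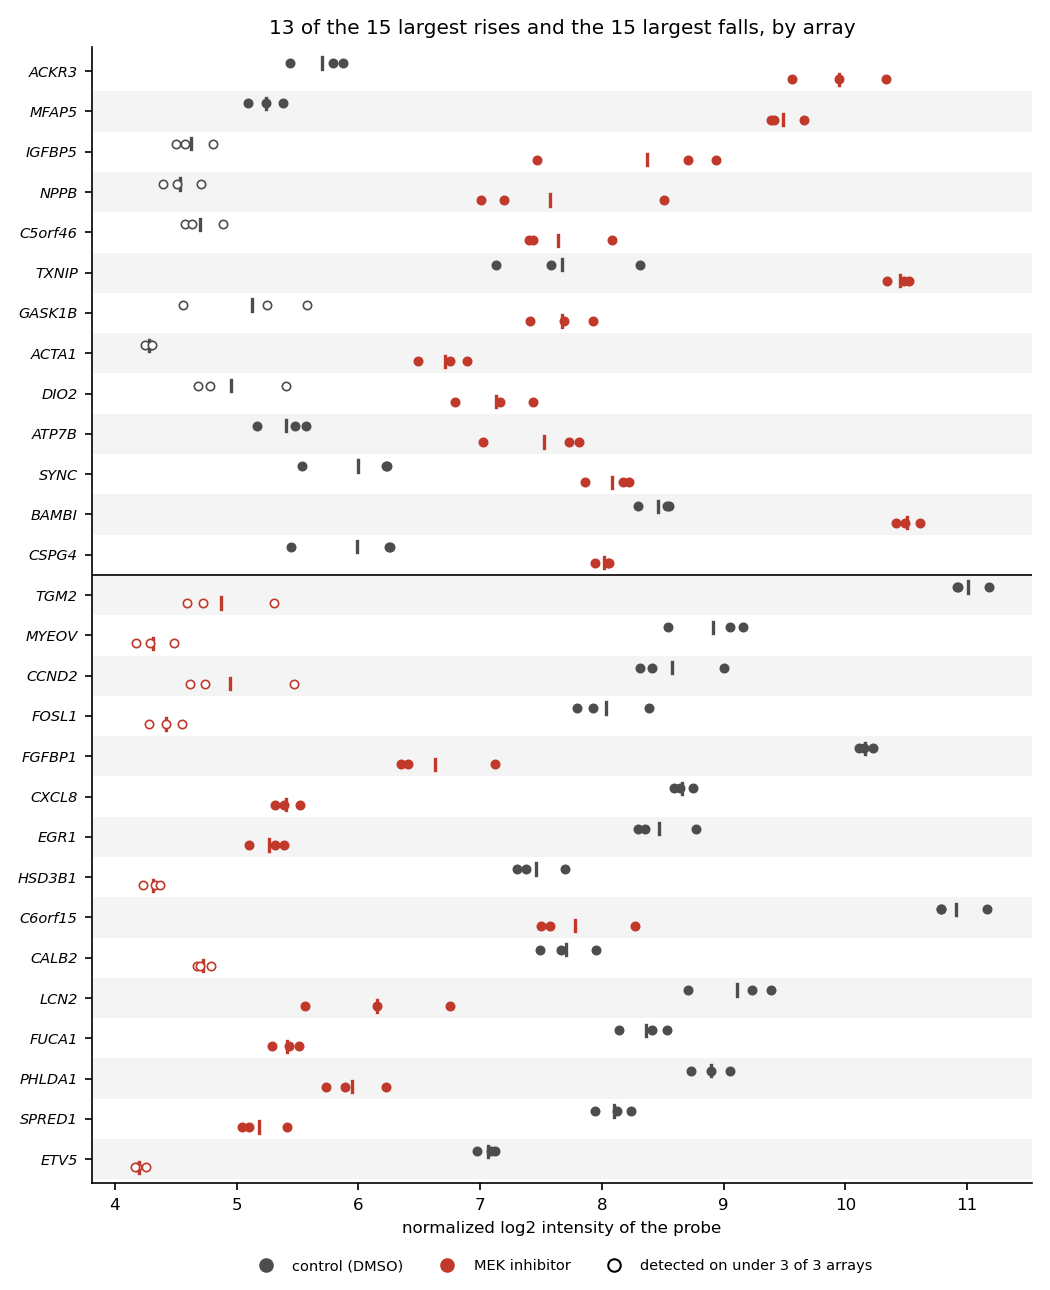
Normalized log2 intensity (horizontal axis) of 13 of the 15 largest rises (top) and the 15 largest falls (bottom) on each array, grey for control and red for the MEK inhibitor, with a bar at each group's mean of 3 arrays and open points where a group had under 3 arrays detected. The 2 groups are apart in every gene, and IGFBP5, NPPB and LCN2 show the widest spread among inhibitor arrays.

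To look beyond single genes, 55 lists by pathway, family or cell structure were described, with 1177 measured genes in them. In 45 of the 55 lists the share of measured members called was above the 16.7% of all genes. The lists were chosen with earlier results of these data known, so this count is no independent support. The shares that fell were highest among kallikreins, secreted defence proteins and early-response genes, and the shares that rose were highest among collagens, microfibril proteins and contractile genes. Detection in either group sufficed for a gene to be measured, so some members entered only through the group where they were higher. Among the rises these include ACTA1, ACTG2, NPPB, POSTN and MATN3, and among the falls FOSL1, ETV5, C3 and SAA4. The shares were not recomputed without such members. Without dominant-negative Ras replicate 3 the number of members called was equal in 15 lists and higher in 40.

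**Figure D3:**
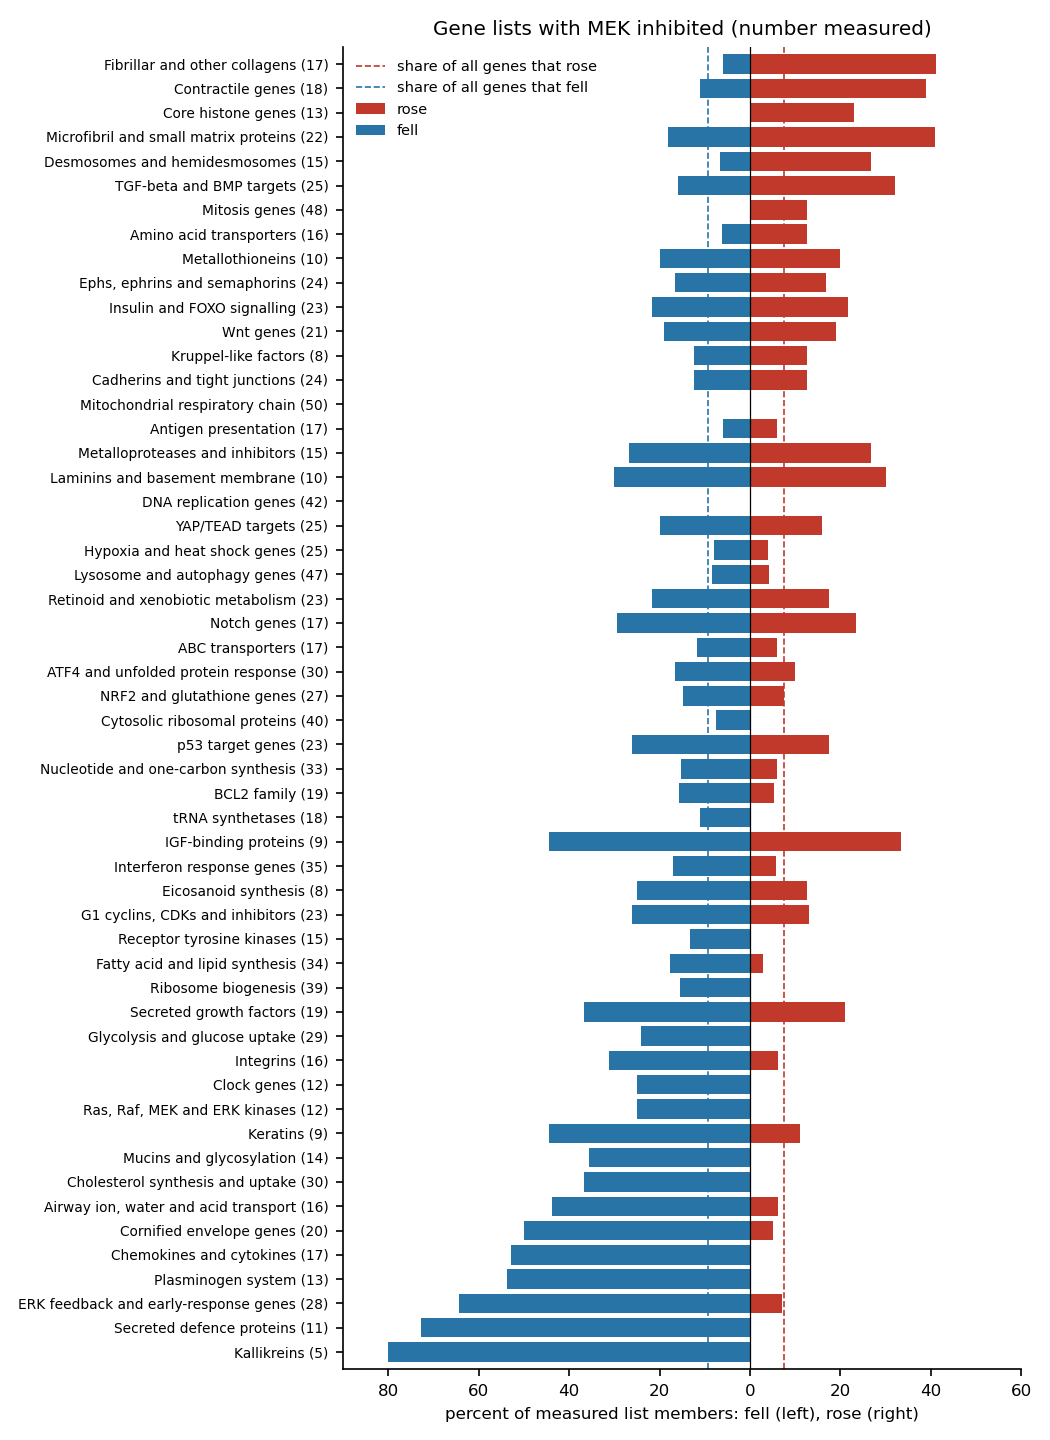
Percent of the measured members of 54 gene lists that fell (left, blue) or rose (right, red) with MEK inhibited, with the number measured in brackets and dashed lines at the shares of all 10208 genes that fell (9.23%) and rose (7.45%). Kallikreins, secreted defence proteins and early-response genes reach furthest left, and collagens, microfibril proteins and contractile genes furthest right. The shares include members detected in a single group, which were measured only through the group where they were higher.

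The ERK feedback and early-response list had 18 of 28 measured members lower and 2 higher (median −1.54, or −1.14 with undetected genes at their bounds). FOSL1 fell at least 9.1-fold and ETV5, an ETS factor, at least 4.62-fold. The feedback genes DUSP5, which dephosphorylates ERK (−2.31 ± 0.14), and SPRY2, which restrains Ras signalling (−1.88 ± 0.13), fell as well. ATF3, a stress-induced factor, moved the other way, from 7.10, 7.03 and 7.22 to 8.26, 8.41 and 8.54 (limma adjusted p = 1.28e-06). Of the cascade's own kinases and adaptors, 3 of 12 measured members fell, among them the adaptor SHC1 (−0.57 ± 0.13).

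Secreted growth factors fell in 7 and rose in 4 of 19 measured cases, out of 33 listed. FGFBP1 went from 10.11, 10.16 and 10.23 to 7.12, 6.41 and 6.35. The EGF receptor ligands HBEGF (−1.41 ± 0.23) and TGFA (−0.99 ± 0.21) fell, as did the lymphatic growth factor VEGFC (−1.51 ± 0.25), the stress hormone GDF15 (−2.21 ± 0.16) and the cytokine LIF (−0.65 ± 0.16). Among the 4 rises were those of the vasodilator peptide ADM (0.87 ± 0.16), TGFB2 (0.82 ± 0.17) and the ERBB ligand NRG1 (at least 1.13-fold). Of 15 measured receptor tyrosine kinases, 2 fell, EPHA1 (−0.90 ± 0.17) and MST1R (−0.74 ± 0.13), a called share of 13.3% against 16.7% of all genes. Without dominant-negative Ras replicate 3 the list had 3 lower and 1 higher. ERBB2 differed by 0.20 ± 0.13 and IGF1R by 0.23 ± 0.15, and neither passed limma's test (adjusted p = 0.329 and 0.321).

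The insulin-like growth factor axis moved in both directions. Among 9 measured binding proteins and CCN relatives, 3 rose and 4 fell. IGFBP3, the main carrier in blood, rose by 0.75 ± 0.18, while IGFBP4 (−0.97 ± 0.15), IGFBP6 (−0.90 ± 0.17) and CCN3 (−1.03 ± 0.14) fell. TXNIP, which restrains glucose uptake and thioredoxin, stood at 7.13, 8.32 and 7.58 in control cells, the widest control spread among the leading rises, and at 10.34, 10.48 and 10.52 with the inhibitor (limma adjusted p = 1.6e-06). Its relative ARRDC4 rose by 1.17 ± 0.21 (limma adjusted p = 0.00134). The forkhead factor FOXO1 rose at least 1.52-fold, whereas FOXO3 (−0.67 ± 0.16) and the insulin receptor substrate IRS2 (−0.91 ± 0.14) fell.

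Of 17 measured chemokines and cytokines, out of 33 listed, 9 fell and 0 rose. CXCL8, the main neutrophil attractant, went from 8.75, 8.59 and 8.64 to 5.52, 5.31 and 5.39 (limma adjusted p = 6.57e-08), and CXCL1, which shares its receptor, from 7.53, 7.95 and 7.60 to 5.42, 5.13 and 5.07 (limma adjusted p = 0.000164). The alarm cytokine IL1A fell by −2.15 ± 0.19 and its antagonist IL1RN at least 2.96-fold, so agonist and antagonist were both lower. IL23A (−1.76 ± 0.17) and CCL20 (−1.33 ± 0.21), which act on T helper cells, fell too. IL6 differed by −0.27 ± 0.23, which did not pass (limma adjusted p = 0.462).

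Of 11 measured secreted defence proteins, out of 33 listed, 8 fell, 4 of them without any one array as well (median −1.40). LCN2, which starves bacteria of iron, read 8.70, 9.39 and 9.23 in control cells and 6.75, 6.15 and 5.56 with the inhibitor (limma adjusted p = 0.001). S100A9, a subunit of calprotectin, went from 11.80, 11.90 and 11.73 to 9.92, 9.65 and 9.50 (limma adjusted p = 1.66e-05). The complement component C3 fell at least 1.44-fold and the acute-phase protein SAA4 at least 2.35-fold. Replicate 1 was the highest of the inhibitor arrays for LCN2 and S100A9 and also for SAA1, an acute-phase protein that read 5.95, 4.40 and 4.41 with the inhibitor, against 7.01, 7.41 and 7.30 in control cells, and its call (limma adjusted p = 0.0158) was lost when single arrays were left out, up to an adjusted p of 0.076. The protease inhibitor SERPINA1 (−2.32 ± 0.26) and the interleukin receptor IL4R (−2.09 ± 0.18), both chosen after their values were seen, fell as well. Of 14 leukocyte markers on the array, 7 were detected in control cells and 5 with the inhibitor, with a summed linear level of 1625 to 1734 and 1326 to 1557, and PTPRC, CD3D and LYZ were detected on none of the 6 arrays.

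Among 35 measured interferon response genes 6 fell and 2 rose, with smaller changes (median −0.23). The interferon IFNL1 fell by −0.92 ± 0.18 (limma adjusted p = 0.00171, detected on 2 of 3 inhibitor arrays) and the antiviral enzyme OAS1 by −0.73 ± 0.14 (limma adjusted p = 0.00163). PSMB9, a subunit of the immunoproteasome, rose by 0.63 ± 0.13 in the antigen presentation list, where 1 of 17 members rose and 1 fell. That is a called share of 11.8% against 16.7% of all genes.

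Of 13 measured genes of the plasminogen and clotting systems 7 fell and 0 rose. The tissue activator PLAT went from 7.01, 6.55 and 6.85 to 5.0, 4.58 and 4.70 (limma adjusted p = 9.73e-08), with detection on 1 of 3 inhibitor arrays. The urokinase gene PLAU fell by −1.16 ± 0.14 and its receptor PLAUR by −1.80 ± 0.33. The serpin SERPINB8 (−1.01 ± 0.18), the serpin SERPINB5 (−0.69 ± 0.14) and the protease inhibitor TFPI2 (−0.91 ± 0.20) fell with them. Of 5 measured kallikreins, serine proteases that shed the surface layer of skin and other epithelia, 4 fell: KLK7 (−2.11 ± 0.32), KLK10 (−1.37 ± 0.23), KLK8 (−1.26 ± 0.20) and KLK6 (−1.07 ± 0.17). KLK7 read 10.78, 10.94 and 11.06 in control cells and 9.32, 8.41 and 8.71 with the inhibitor.

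Metalloproteases and their inhibitors split, with 4 of 15 measured members higher and 4 lower. ADAM8, a membrane sheddase, went from 8.33, 7.89 and 8.28 to 6.13, 5.17 and 5.01 (limma adjusted p = 1.46e-05), and the gelatinase MMP9 fell by −1.66 ± 0.29. The sheddase ADAM10 rose by 0.67 ± 0.16 (named after its value was seen), with an adjusted p of up to 0.0543 when single arrays were left out. Of the inhibitors, TIMP1 fell from 11.02, 10.81 and 10.99 to 9.33, 9.26 and 9.11 (limma adjusted p = 6.11e-06), while the matrix-bound TIMP3 rose from 6.05, 5.56 and 5.90 to 7.76, 7.70 and 7.79 (limma adjusted p = 3.16e-07). For each of these inhibitors the groups were more than 1 log2 unit apart.

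Integrins, the receptors that hold cells to the matrix, fell more often than they rose. Of 16 measured genes of integrin subunits and the proteins that link them to actin, 5 fell and 1 rose, all of them subunits. ITGA2, the collagen-binding alpha subunit, went from 8.35, 7.79 and 7.79 to 5.43, 5.23 and 5.32 (limma adjusted p = 2.5e-06). ITGB6, which activates latent TGF-beta, fell at least 1.69-fold, and the laminin-binding ITGA6 and ITGA3 fell by −0.97 ± 0.17 and −0.60 ± 0.12. The hyaluronan receptor CD44 (−2.13 ± 0.22, chosen after its values were seen) fell as well.

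In the list of collagens and the enzymes and chaperone that modify them, 7 of 17 measured genes rose, out of 34 listed, and 1 fell. The fall was in the cross-linking enzyme LOXL1 (−0.47 ± 0.12, detected on 2 of 3 inhibitor arrays and named after its value was seen), which lost its call when single arrays were left out, up to an adjusted p of 0.0909. COL5A1, which sets the width of collagen fibrils, went from 8.46, 8.89 and 8.91 to 10.05, 9.96 and 10.28 (limma adjusted p = 6.9e-06), and COL7A1, which forms the anchoring fibrils under epithelia, from 7.15, 7.50 and 7.66 to 8.49, 8.30 and 8.46 (limma adjusted p = 0.00157). COL1A1 (0.68 ± 0.12), COL18A1 (0.91 ± 0.16) and the basement membrane chain COL4A5 (0.95 ± 0.14) rose too. Among 22 microfibril and small matrix genes 9 rose and 4 fell. With MFAP5 rose CCDC80 (1.46 ± 0.12), the collagen-binding proteoglycan LUM (1.33 ± 0.29), POSTN (at least 1.34-fold) and the cartilage protein MATN3 (at least 1.59-fold). TNC, a matrix protein of wound edges, went the other way, from 8.88, 8.63 and 8.56 to 6.70, 6.06 and 6.13 (limma adjusted p = 3.19e-07), as did TGFBI (−1.24 ± 0.25). Laminin and basement membrane genes moved both ways, with 3 of 10 measured members higher and 3 lower. The rises were LAMC1, the shared gamma chain of most laminins (0.72 ± 0.12), SPARC (0.78 ± 0.15) and FRAS1 (1.30 ± 0.25). Each of these 3 rises kept its call without any one array, and 0 of the 3 falls did.

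Several of these matrix genes are also fibroblast products. Of 12 fibroblast markers, 3 were detected in control cells and 5 with the inhibitor, and their summed linear level was 1180 to 1494 in control cells and 1309 to 1419 with the inhibitor. COL1A2, COL3A1, DCN, FAP, PDGFRA and THY1 were detected on none of the 6 arrays.

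Contractile and related muscle genes rose in 7 of 18 measured cases, out of 24 listed, and 2 fell. Many genes of this kind have CArG boxes, the binding sequence of the serum response factor, in their promoters, and so does EGR1. The 250 bases before the RefSeq start of 4 such genes (GRCh38.p14) are shown to set a gene that fell, EGR1, beside ACTA1, ACTG2 and MYL7, which rose; the latter 2 were chosen after their values were seen. Capitals mark the CArG boxes found on either strand, and each sequence runs 5′ to 3′ on its gene's strand. The intervals are chr5:138465229-138465478 on the plus strand, chr1:229434095-229434344 on the minus strand, chr2:73892758-73893007 on the plus strand and chr7:44141333-44141582 on the minus strand.
EGR1: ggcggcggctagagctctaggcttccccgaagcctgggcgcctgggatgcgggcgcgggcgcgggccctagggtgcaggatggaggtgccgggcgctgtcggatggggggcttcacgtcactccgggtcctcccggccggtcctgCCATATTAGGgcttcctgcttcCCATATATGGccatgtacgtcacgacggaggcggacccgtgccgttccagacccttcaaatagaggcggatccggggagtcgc
ACTA1: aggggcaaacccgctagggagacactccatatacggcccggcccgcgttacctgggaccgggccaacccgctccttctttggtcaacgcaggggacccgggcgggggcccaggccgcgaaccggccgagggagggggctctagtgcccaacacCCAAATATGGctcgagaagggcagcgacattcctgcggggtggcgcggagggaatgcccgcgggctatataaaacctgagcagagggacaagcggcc
ACTG2: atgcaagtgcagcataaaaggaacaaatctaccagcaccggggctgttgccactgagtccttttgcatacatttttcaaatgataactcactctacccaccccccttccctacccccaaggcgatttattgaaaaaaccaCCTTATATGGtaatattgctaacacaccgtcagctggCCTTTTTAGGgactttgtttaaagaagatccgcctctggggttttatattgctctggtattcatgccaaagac
MYL7: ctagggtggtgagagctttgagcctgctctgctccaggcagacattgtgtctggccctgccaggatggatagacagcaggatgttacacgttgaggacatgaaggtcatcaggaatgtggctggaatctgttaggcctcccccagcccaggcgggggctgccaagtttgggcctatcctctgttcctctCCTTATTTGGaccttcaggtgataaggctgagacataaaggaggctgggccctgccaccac

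EGR1 has CArG boxes that begin 105 and 83 bases before the start, ACTA1 has 1 at 97, ACTG2 has 2 at 110 and 73, and MYL7 has 1 at 61. The contractile gene MYLK, which fell, also has 1 in this window, so contractile genes with a box did not all rise. A CArG box in this window was present in 1.16% of 35116 RefSeq promoters and in 1.52% of the 8350 measured genes that matched one by symbol. The share was 2.87% of 628 genes that rose (18 genes), 1.36% of 733 that fell (10 genes) and 1.42% of 6989 that did not pass (99 genes). Of these, ACTA1, ACTG2 and MYL7 among the rises and ITGB6 among the falls were detected in a single group. Such genes were measured only through the group where they were higher, and the shares were not recomputed without them. A match is a description of the letters and not a site shown to be bound.

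ACTA1, skeletal muscle actin, was undetected on the control arrays and read 6.89, 6.49 and 6.76 with the inhibitor, at least 3.64-fold higher (limma adjusted p = 5.34e-09). ACTG2, an actin of visceral smooth muscle, was also undetected in control cells and at least 3.23-fold higher with the inhibitor (limma adjusted p = 0.000654), and the atrial light chain MYL7 at least 1.96-fold (limma adjusted p = 5.83e-07). NPPB, the natriuretic peptide precursor of stretched heart muscle, read 8.51, 7.01 and 7.20 with the inhibitor, at least 6.61-fold above the undetected control level (limma adjusted p = 8.17e-05). TNNC1, troponin C of heart and slow muscle, went from 6.78, 7.49 and 7.50 to 9.47, 9.03 and 9.33 (limma adjusted p = 5.29e-05), and TAGLN, an actin-binding protein of smooth muscle, from 9.97, 9.96 and 10.21 to 11.75, 11.65 and 11.68 (limma adjusted p = 6.29e-06). The actin-binding CALD1 rose by 1.12 ± 0.13. The smooth muscle actin ACTA2 (−0.59 ± 0.15) and the myosin light chain kinase MYLK (−0.84 ± 0.15) fell, the former with an adjusted p of up to 0.0597 when single arrays were left out, so the smooth muscle genes did not all move in one direction. EGR1 itself went from 8.29, 8.77 and 8.35 to 5.31, 5.10 and 5.39 (limma adjusted p = 2.21e-09).

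Of 25 measured genes of YAP and TEAD, factors that respond to cell tension, and of their targets, 4 rose and 5 fell. ANKRD1 (at least 4.56-fold) and the ectonucleotidase NT5E (−2.29 ± 0.19) had the largest falls there, and AJUBA rose by 1.01 ± 0.16.

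Of 25 measured genes of the TGF-beta and BMP pathways and their targets 8 rose and 4 fell. ID3, an inhibitor of helix-loop-helix factors and a direct BMP target, went from 8.78, 8.86 and 9.07 to 10.60, 10.54 and 10.71 (limma adjusted p = 8.33e-08). Its relatives ID4 (1.67 ± 0.20) and ID2 (1.45 ± 0.35, detected on 1 of 3 control arrays) rose too, while ID1 differed by 0.03 ± 0.23 (limma adjusted p = 0.944). BAMBI, a decoy receptor induced by BMP and TGF-beta, went from 8.30, 8.55 and 8.54 to 10.61, 10.42 and 10.49 (limma adjusted p = 1.21e-08). The secreted FSTL1 rose by 1.65 ± 0.18, the activin trap FST fell by −1.18 ± 0.21, and the signal carrier SMAD3 fell by −0.57 ± 0.13. PMEPA1 and SMAD7, also TGF-beta targets, differed by 0.13 ± 0.16 and 0.23 ± 0.17 and did not pass (limma adjusted p = 0.642 and 0.403).

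**Figure D4:**
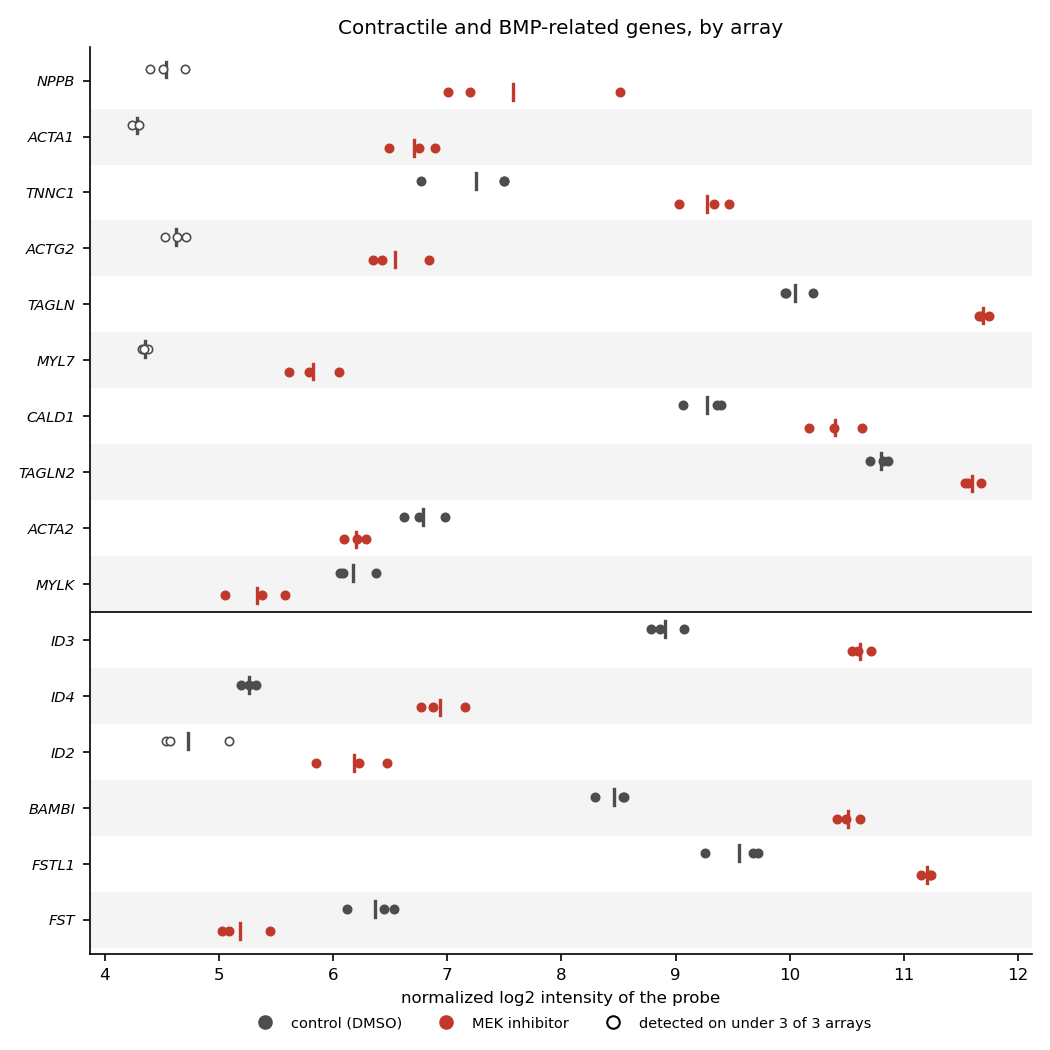
Normalized log2 intensity (horizontal axis) on each control array (grey) and MEK inhibitor array (red) for contractile and related muscle genes (top) and genes tied to BMP and TGF-beta signalling (bottom), with a bar at each group's mean of 3 arrays and open points where under 3 arrays were detected. ACTA2, MYLK and FST are lower with the inhibitor, and the other 13 genes are higher.

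Notch genes moved both ways, with 4 of 17 higher and 5 lower. The receptor NOTCH3 (−1.0 ± 0.13), the target HES1 (−0.97 ± 0.15) and its relative HES2 (−2.10 ± 0.23) fell, while the ligand JAG2 (0.97 ± 0.16) and the target HES4 (0.62 ± 0.11) rose. Of 21 Wnt genes 4 rose and 4 fell, and the secreted Wnt antagonist SFRP1 fell by −1.25 ± 0.32. The flow-responsive factor KLF2 went from 7.18, 6.95 and 7.24 to 8.75, 9.32 and 9.32 (limma adjusted p = 3.16e-07), and its relative KLF4, a factor of epithelial differentiation, fell by −1.02 ± 0.17. SOX9, a progenitor factor of the airway (−2.08 ± 0.25, chosen after its values were seen), fell as well. Of 24 measured genes of cell junctions and of the factors that set or repress the epithelial state 3 rose and 3 fell. The epithelial repressor SNAI2 rose from 6.65, 7.12 and 7.19 to 8.28, 8.80 and 8.69 (limma adjusted p = 0.000296) and TWIST1 by 0.74 ± 0.15. The epithelial factor GRHL2 also rose (0.44 ± 0.14), with an adjusted p of up to 0.153 when single arrays were left out, while the cadherin CDH1 (−0.03 ± 0.13) and the mesenchymal filament VIM (−0.11 ± 0.15) did not pass (limma adjusted p = 0.91 and 0.67). The claudins CLDN3 (−1.21 ± 0.18) and CLDN7 (−0.90 ± 0.17) fell, while the junction gene EPCAM differed by −0.23 ± 0.12 and the splicing factor ESRP1 by −0.15 ± 0.18, and neither passed (limma adjusted p = 0.216 and 0.628).

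Keratins fell in 4 of 9 measured cases and rose in 1. The simple-epithelium pair KRT8 (−0.77 ± 0.15) and KRT18 (−0.97 ± 0.14) and the basal KRT15 (at least 1.61-fold) fell, while KRT16, a keratin of injured and stressed epidermis, rose from 8.67, 8.20 and 8.38 to 10.13, 9.52 and 9.91 (limma adjusted p = 0.000147). Of 20 measured cornified envelope genes 10 fell and 1 rose. TGM2 is in that list by family. CRCT1 (at least 4.8-fold) and the differentiation factor GRHL3 (at least 2.19-fold) fell, as did ZNF750, a regulator of epidermal differentiation chosen after its values were seen (at least 3.25-fold, limma adjusted p = 1.38e-06). TGM1, the transglutaminase of the cornified envelope, rose by 1.0 ± 0.13 (limma adjusted p = 9.18e-05).

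Of the G1 cyclins, CCND2 went from 9.0, 8.31 and 8.41 to 5.47, 4.62 and 4.74, where it was detected on 1 of 3 arrays (limma adjusted p = 1.15e-06), and CCND1 fell by −2.06 ± 0.17. The CDK inhibitor CDKN1A fell from 11.02, 11.12 and 11.01 to 10.41, 10.40 and 10.31 (limma adjusted p = 0.00337), while CDKN2B rose by 0.76 ± 0.15. Of 42 measured DNA replication genes limma called 0, with 3 at an unadjusted p under 0.05 and 1 called when the 6 arrays were fitted alone or without dominant-negative Ras replicate 3. Of 48 mitosis genes 6 rose, by at most 0.62. Among 19 measured genes of the BCL2 and IAP families, which govern cell death, 3 fell and 1 rose. The protective BCL2L1 went from 10.96, 11.12 and 11.21 to 10.31, 10.29 and 10.21 (limma adjusted p = 0.000158). The death-promoting BID fell by −1.06 ± 0.17, while the death-promoting HRK rose by 0.92 ± 0.17. The remaining fall was also in a death-promoting gene (−0.74 ± 0.18). BCL2L11, a death gene that ERK is known to restrain, differed by 0.15 ± 0.20 (limma adjusted p = 0.66).

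Retinoid and steroid enzymes changed in both directions, with 5 of 23 measured genes lower and 4 higher. HSD3B1, which makes progesterone and other steroids, read 7.30, 7.37 and 7.70 in control cells, was undetected with the inhibitor, and was at least 6.08-fold lower (limma adjusted p = 1.95e-10). HSD17B2, which inactivates estradiol and testosterone, was at least 2.36-fold lower (limma adjusted p = 5.21e-06), and the sterol sulfotransferase SULT2B1 fell by −1.63 ± 0.15. CRABP2, which carries retinoic acid to the nucleus, went from 8.73, 8.96 and 8.83 to 7.19, 6.93 and 7.11 (limma adjusted p = 3e-07). The retinol-oxidising RDH10 rose from 6.25, 6.50 and 6.58 to 7.67, 8.31 and 8.29 (limma adjusted p = 4.5e-05), and the retinal-oxidising ALDH1A1 by 1.51 ± 0.30 (detected on 1 of 3 control arrays). MAOA, which degrades serotonin and noradrenaline (−2.63 ± 0.15), and the adenosine receptor ADORA2B (−2.60 ± 0.19), both chosen after their values were seen, fell.

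Among transporters the organic anion pump ABCC3 read 6.82, 7.13 and 7.09 in control cells and was undetected with the inhibitor, at least 4.48-fold lower (limma adjusted p = 6.01e-07), while the drug pump ABCG2 rose by 0.80 ± 0.17. SLC3A2 (0.95 ± 0.12) and SLC7A5 (0.59 ± 0.12), which pair into a transporter of large neutral amino acids, rose. Of 17 measured ABC transporters 1 rose and 2 fell, and of 16 amino acid transporters 2 rose and 1 fell. The shares called, 17.6% and 18.8%, were near the 16.7% of all genes. Of 16 measured genes of airway ion, water and acid transport 7 fell and 1 rose. SCNN1A, the alpha subunit of the epithelial sodium channel, went from 8.77, 8.97 and 8.84 to 6.98, 6.65 and 6.68 (limma adjusted p = 4.2e-07), the chloride channel ANO1 fell by −1.13 ± 0.13, and the potassium channel KCNK1 rose by 0.57 ± 0.12. Of 14 measured genes of mucins and their glycosylation, out of 32 listed, 5 fell. They included the fucosyltransferase FUT3, which makes Lewis antigens (−1.50 ± 0.25), the sialyltransferase ST6GAL1 (−1.28 ± 0.15) and B3GNT3 (−1.21 ± 0.20).

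Lysosomal and respiratory genes were mostly uncalled. 4 of 47 measured lysosome and autophagy genes fell and 2 rose, a share of 12.8% against 16.7% of all genes. The sialidase NEU1 (−0.92 ± 0.12) and the protease CTSD (−0.65 ± 0.15) fell, and ULK1, the kinase that starts autophagy, rose from 8.77, 8.81 and 8.93 to 9.92, 9.79 and 9.94 (limma adjusted p = 4.82e-05). Of 50 respiratory chain genes limma called 0, with 6 at an unadjusted p under 0.05 and 1 called when the 6 arrays were fitted alone and 2 without dominant-negative Ras replicate 3. PRPS1, which makes the ribose donor of nucleotides, rose by 1.05 ± 0.13 among 33 nucleotide and one-carbon genes, of which 5 fell and 2 rose. Clock genes fell in 3 of 12 cases, namely BHLHE40 (−1.18 ± 0.25), PER2 (−0.80 ± 0.16) and NPAS2 (at least 1.16-fold). The haem oxygenase HMOX1 rose by 0.80 ± 0.12 among 27 NRF2 and glutathione genes, of which 4 fell and 2 rose.

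The AP-1 complex of FOS and JUN proteins binds the letters TGACTCA. Of its 6 measured subunits FOSL1 fell and JUN rose by 0.42 ± 0.11, with an adjusted p of up to 0.0707 when single arrays were left out. FOSB, FOSL2, JUNB and JUND did not pass (limma adjusted p = 0.0709 to 0.778), and all but FOSL1 are named after their values were seen. CXCL8 and IL1A are shown as cytokine genes that fell and have these letters in the 250 bases before the RefSeq start (GRCh38.p14), chr4:73740319-73740568 on the plus strand and chr2:112784401-112784650 on the minus strand, with capitals at TGACTCA on either strand.
CXCL8: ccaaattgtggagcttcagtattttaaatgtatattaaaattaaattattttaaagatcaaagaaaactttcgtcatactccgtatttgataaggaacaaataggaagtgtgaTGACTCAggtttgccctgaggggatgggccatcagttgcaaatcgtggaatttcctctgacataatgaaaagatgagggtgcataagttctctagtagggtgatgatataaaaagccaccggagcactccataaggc
IL1A: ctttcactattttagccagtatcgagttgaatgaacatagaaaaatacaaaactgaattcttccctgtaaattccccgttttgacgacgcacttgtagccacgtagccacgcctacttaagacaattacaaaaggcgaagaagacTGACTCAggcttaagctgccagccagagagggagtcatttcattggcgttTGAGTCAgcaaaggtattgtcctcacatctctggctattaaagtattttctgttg

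CXCL1, which fell as well, does not have them in this window. CXCL8 has the letters once, beginning 137 bases before the start, and IL1A has them at 105 and 55. They stood in this window in 4.2% of 35116 promoters and in 4.23% of the 8350 measured genes with a match. The share was 7.78% of 733 genes that fell (57 genes), 4.46% of 628 that rose (28 genes) and 3.83% of 6989 that did not pass (268 genes). Here too some genes, such as IL1RN among the falls and POSTN among the rises, were measured only through the group where they were higher.

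The MEK inhibitor was also set against the ERK inhibitor, which blocks the next kinase at another dose, to show where the response to GSK1120212 differed. This comparison shares its MEK inhibitor arrays with the one above. Of 10208 genes 1010 (9.89%) passed limma's test, 368 higher with the MEK inhibitor (3.61%) and 642 lower (6.29%). The count was 523 without MEK inhibitor replicate 2, 552 without MEK inhibitor replicate 3 and 557 without ERK inhibitor replicate 1. Among interferon response genes 26 of 35 were lower with the MEK inhibitor than with the ERK inhibitor, and so were 12 of 17 chemokines and cytokines and 8 of 13 genes of the plasminogen system. Of 11 secreted defence proteins 7 were lower and 0 higher. In the ERK feedback and early-response list 12 of 28 were lower and 0 higher (median −0.36).

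IFNB1, the gene of interferon beta, read 6.98, 7.07 and 7.24 in control cells, 7.17, 6.56 and 6.49 with the MEK inhibitor and 10.04, 10.03 and 10.30 with the ERK inhibitor, a difference of −3.38 ± 0.17 between the inhibitors (limma adjusted p = 1.34e-08). It overlapped between control and MEK inhibitor arrays, where its change did not pass (limma adjusted p = 0.167). LCN2 stood on either side of control, with 9.83, 9.62 and 9.48 with the ERK inhibitor, a difference of −3.49 ± 0.52 (limma adjusted p = 0.000441). TGM2 lay between control and the MEK inhibitor with the ERK inhibitor, at 8.75, 8.46 and 8.55 (−3.71 ± 0.20, limma adjusted p = 1.36e-08). KRT34 (−3.12 ± 0.50), IGFL1 (−2.99 ± 0.29) and IFNL1 (−3.29 ± 0.18) were lower with the MEK inhibitor as well, and IFNL1 and IGFL1 were detected on 2 of its 3 arrays. MFAP5 (2.45 ± 0.29), ACKR3 (2.36 ± 0.51), DIO2 (2.21 ± 0.32), ATP7B (2.20 ± 0.33) and ALDH1A1 (1.61 ± 0.30) were higher with the MEK inhibitor, DIO2 being detected on 2 and ALDH1A1 on 1 of 3 ERK inhibitor arrays. IGFBP5 differed by 2.98 ± 0.79 (limma adjusted p = 0.0259), a call lost when single arrays were left out, up to an adjusted p of 0.104. EGR1 differed by 0.03 ± 0.16 between the inhibitors (limma adjusted p = 0.933) and NPPB by −0.14 ± 0.40 (limma adjusted p = 0.874).

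**Figure D5:**
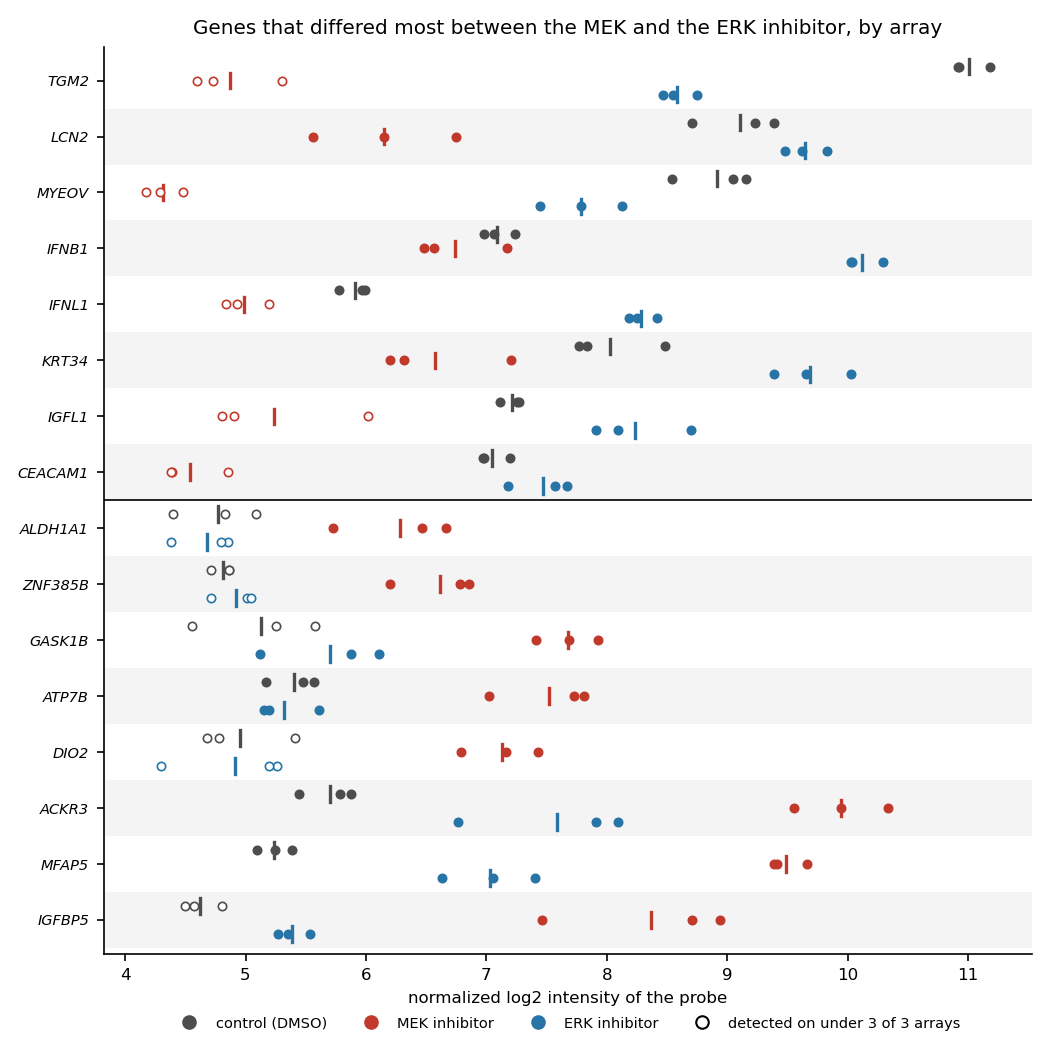
Normalized log2 intensity (horizontal axis) of the 16 genes that differed most between the inhibitors on each array of control (grey), MEK inhibitor (red) and ERK inhibitor (blue) cells, with a bar at each group's mean of 3 arrays and open points where a group had under 3 arrays detected. The top 8 genes are lower and the bottom 8 higher with the MEK inhibitor, and LCN2, IFNB1, IFNL1, KRT34, IGFL1 and CEACAM1 have ERK inhibitor means above control.

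Probes that the annotation leaves without a gene symbol were tested on their own. Of 2999 such probes 347 (11.6%) passed, 157 of them higher with the MEK inhibitor, and no gene is named for them here. The count was 156 without control replicate 1 and 163 without MEK inhibitor replicate 2.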

How the data were processed

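The authors deposited the mean bead intensity of each probe on Illumina arrays of biotin-labelled cRNA, not normalized, with a detection p-value against the array's negative controls, per the file headers. Per the submitters' processing notes the software was GenomeStudio, with no version or settings stated. A deposited table of the authors' processed intensity values served as an alternative, after 32 was added and log2 taken.

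Intensities were background-corrected from the detection p-values, given an offset of 16, quantile-normalized and put on a log2 scale with limma's neqc (limma 3.58.1, R 4.3.3), which would hide a shift shared by most genes. Probes with a detection p under 0.01 on all 3 arrays of the control or the MEK inhibitor group were kept (16379), and 13377 had 1 symbol in the series' annotation, updated through RefSeq. For 2623 genes with several kept probes the brightest stood for the gene. Of 504 further kept probes of called genes 482 moved the same way, 253 of them called, and none was called in the opposite direction.

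Genes were tested with lmFit and eBayes of limma over 4 group means and all 12 arrays, with Benjamini-Hochberg adjustment over 10208 genes and a threshold of 0.05. The median moderated SD was 0.167 on the log2 scale, and the number of arrays limits precision. The members and lists were chosen with earlier results of these data known. Genes were named by a rule: the 15 largest rises and falls among called genes, up to 6 called members and the key members of each list, the 8 largest differences each way between inhibitors, and markers. It gives 478 genes, from which the text draws, and exceptions are named as such. Of these, 1 gene list and 2 of the 15 largest rises are not reported here. The fit was tested on simulated data. Promoters came from RefSeq (GRCh38.p14).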

Additional observations from a re-analysis of the deposited data

How the results depend on the processing

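The number of genes called with MEK inhibited ranged from 1440 to 2289 over scaling to 1 median (1649), the authors' values (1780), a stricter filter (1440), no filter (1503), probe means (1828), the 6 arrays alone (2289), the replicate block (1838) and an offset of 50 (1757). Leaving out 1 array gave 1066 to 2072 genes, with 441 to 949 higher and 612 to 1123 lower. Against the ERK inhibitor it gave 523 to 1368. For probes without a symbol it gave 156 to 407, and no filter gave 166 of 17202. The main fit did not pair arrays by replicate number. Same-numbered control and MEK inhibitor arrays correlated at 0.159, 0.145 and 0.0271 in their deviations from the group means. Among MEK inhibitor arrays, control replicate 3 correlated best with replicate 2 (0.0362). Same-numbered MEK and ERK inhibitor arrays correlated at 0.345, 0.134 and 0.0806, and same-numbered control and ERK inhibitor arrays at 0.176, 0.108 and 0.0453. Same-numbered control and dominant-negative Ras arrays correlated at 0.0719, −0.186 and 0.082. The labels do not state whether a number marks an experiment. Under the block the called genes named in the text stayed called except GRHL2 (adjusted p = 0.05), and KRT34, uncalled against control, passed as well.

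Of the 183 called genes named in the text, 174 kept their direction and their call under every alternative that gave them a value. The exceptions were ACTA2 without control replicate 2 (adjusted p = 0.0597), SFRP1 (0.0547), SAA1 (0.0729) and GRHL2 (0.0669) without a filter, LOXL1 with median scaling (0.0697) and an offset of 50 (0.076), ADAM10, JUN, LOXL1 and GRHL2 without 1 to 6 single arrays each (0.0528 to 0.153), SAA1 without 3 single arrays (0.0512 to 0.076), and SHC1 (0.106) and TNFRSF10B (0.249) by probe means, with the cause not tested. Over single arrays left out, ID1, uncalled throughout, ranged from −0.067 to 0.193 and turned to −0.067, −0.034 and −0.065 without control replicate 1 and MEK inhibitor replicates 2 and 3. The median of the laminin list went from 0.187 to −0.057 with no filter. Dim genes, undetected in a group, have bounds only.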

Other observations

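Further lists hold changes that belong to none of the groups above. Of 24 measured genes of the Eph, semaphorin and netrin families 4 rose and 4 fell. The basement membrane netrin NTN4 went from 8.25, 8.51 and 8.43 to 9.40, 9.44 and 9.64 (limma adjusted p = 5.48e-05), while the guidance ligands SLIT2, SEMA4B and SEMA4D fell by −0.62 ± 0.13, −0.70 ± 0.11 and −0.58 ± 0.13. Of 23 measured p53 target genes 6 fell and 4 rose, with the nuclease AEN at −0.83 ± 0.13, the antiproliferative BTG1 at −0.69 ± 0.15 and the death receptor TNFRSF10B at −0.54 ± 0.12. Of 30 genes of ATF4 and the unfolded protein response 3 rose and 5 fell, among them the lipoprotein receptor VLDLR (1.10 ± 0.16) and the phosphatase subunit PPP1R15A (−0.62 ± 0.11). The chaperone HSPA5, the usual gauge of that response, differed by 0.08 ± 0.11 and did not pass (limma adjusted p = 0.671).

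The biosynthetic lists fell more often than they rose. The counts were 11 lower and 0 higher of 30 for cholesterol synthesis and uptake, 6 and 1 of 34 for fatty acid and lipid synthesis, and 7 and 0 of 29 for glycolysis and glucose uptake. DHCR7, an enzyme of the final steps of cholesterol synthesis, went from 10.18, 10.22 and 9.90 to 9.19, 9.05 and 8.95 (limma adjusted p = 0.000638). The spermidine synthase SRM (−0.66 ± 0.12) and the ribosome assembly factor NOP2 (−0.60 ± 0.11) fell, and for 39 ribosome biogenesis genes the count was 6 lower. These counts are read against 9.23% of all genes lower and 7.45% higher, and no test of a list was made.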
